A study of Mus musculus with 4 samples.

Results

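Rbm3 and Cirbp, the genes of the cold-inducible RNA-binding proteins RBM3 and CIRBP, are 2 of the 32285 genes in the deposited single-cell count tables of mouse draining lymph nodes. Both were chosen by name after their lower levels in the libraries of extracellular vesicle (EV)-treated mice had been seen, so their EV and control levels are given as a description with no test. Wildtype C57BL/6 mice received 100 µg of EVs from human induced pluripotent stem cells (iPSCs) under the skin, and the draining lymph nodes were taken on day 5. The control mice are labelled as untreated, and the methods of the study give them PBS. The labels also carry a duration of 24 hours for every sample, which differs from the 5 days of the design text. Each group holds 2 biological replicates and each replicate is 1 library, named here Control 1, Control 2, EV 1 and EV 2. Nodes of both groups were collected into cold buffer and pressed through a strainer with no enrichment of cell types, and the age of the mice and the number of mice per replicate are not given in the sources used here.

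RBM3 and CIRBP are small glycine-rich proteins with a single RNA-recognition motif. Their mRNAs accumulate when mammalian cells are cooled mildly and decline with heat, the opposite of the heat shock genes that the transcription factor HSF1 drives. CIRBP follows the daily rhythm of body temperature and stabilises transcripts of the circadian clock, and both proteins bind mRNAs and affect their translation and stability. HSPA8, the constitutive member of the HSP70 chaperone family, was followed beside them.

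Rbm3 (ENSMUSG00000031167) lies at chrX:8138975-8145880 on the minus strand and Cirbp (ENSMUSG00000045193) at chr10:80165985-80172786 on the plus strand of mouse build GRCm38, and both are protein-coding. Hspa8 (ENSMUSG00000015656) lies at chr9:40800984-40810087 on the plus strand. The antisense gene Rbm3os overlaps 452 bases of Rbm3 on the opposite strand. It held 4 to 22 UMIs per library in B, CD4 T and CD8 T cells, against 2860 UMIs or more of Rbm3, and no UMI in macrophages or dendritic cells. No other annotated transcript matched the last 300 bases of a coding transcript of either gene over 90 or more bases at 95% identity, so a close copy that would split the reads of Rbm3 or Cirbp was not found.

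The 250 bases before a start of Cirbp at position 80167839, at chr10:80167589-80167838 on the plus strand in the RefSeq annotation of GRCm38.p6, are shown because they hold the letters TCCCCGCC (in capitals), known as the mild-cold responsive element to which Sp1 binds.
Cirbp promoter: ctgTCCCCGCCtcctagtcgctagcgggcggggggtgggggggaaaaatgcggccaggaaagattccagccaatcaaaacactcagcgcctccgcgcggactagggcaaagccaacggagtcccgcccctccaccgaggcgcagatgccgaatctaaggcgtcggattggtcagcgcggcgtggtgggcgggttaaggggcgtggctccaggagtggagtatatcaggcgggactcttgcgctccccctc
The element starts 247 bases before the start, and 4.68% of the 32544 mouse promoters searched on both strands over windows of the same length hold its letters. CCAAT stands 181 bases before the start on the plus strand and 85 bases before it on the minus strand, and 33.8% of the promoters hold CCAAT. The heat shock element core GAANNTTC, held by 6.72% of the promoters, is not among the letters of this window. A second Cirbp start, at position 80168171, held none of the 3 motifs in its window. The table used holds no promoter of Rbm3 or Hspa8.

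The 4 libraries held 50749656 to 70418672 UMIs, and 32725 of 34323 deposited cells passed the filters, with a median of 5502 to 6639 UMIs per cell. Between 12 and 26 cell barcodes were shared by any pair of libraries. Cells were taken as B, CD4 T, CD8 T, macrophage or dendritic by UMIs of defining genes, which gave 14686, 5197, 5901, 280 and 376 cells. The marker sums that follow include the genes that set the gates, so they describe the gates and do not test them. The 7 B markers summed to 12249 to 13856 UMIs per 1000000 (CPM) in B cells and to 16.9 to 26.1 CPM in CD4 T cells. The CD4 T gate itself excluded the B marker Cd79a. Macrophages carried 7 of 8 macrophage markers in every library (3620 to 6925 CPM), at a median of only 1100 to 1456 UMIs per cell. B markers were also present in macrophages, at 3141 CPM in Control 1, 2927 in Control 2, 5483 in EV 1 and 6061 in EV 2, against macrophage marker sums of 6925, 4904, 4833 and 3620 CPM. The macrophages of both EV libraries thus held more B marker than macrophage marker UMIs. Dendritic cells carried 8 of 8 markers, with B markers at 1709 to 2177 CPM. Median ribosomal shares differed little between the T cells of 3 libraries and were lowest in EV 2, at 26.6% in CD4 T cells against 28.8 to 29.2% in the other 3. Genes induced by tissue handling, summed over CD4 T cells, stood at 513 CPM in Control 1, 523 in Control 2, 599 in EV 1 and 398 in EV 2, so the groups overlapped. The groups also overlapped in B and CD8 T cells. In the same order, the sums were 343, 362, 583 and 435 CPM in macrophages and 478, 597, 681 and 649 CPM in dendritic cells. Both EV libraries were thus higher in these myeloid gates. Median UMIs per cell were 4141.5, 4905 and 5811 in B and 6046, 6984 and 8339 in CD4 T cells of Control 1, Control 2 and EV 1. In EV 2 the bins of cells by Hspa8, described below, had medians of 5419 to 5774 in B and 7156.5 to 7804 in CD4 T cells. Both EV libraries were thus deeper per cell than both control libraries in these gates. Shares of cells at equal depth are given below. Other signs separated the groups without overlap, and the share of all genes that did so is given below. B cells numbered 3016, 2503, 4866 and 4301 in Control 1, Control 2, EV 1 and EV 2. CD4 T cells numbered 1383, 1624, 923 and 1267. The rRNA-like transcript Gm42418 was at 8574 CPM in Control 1, 9945 in Control 2, 5470 in EV 1 and 719 in EV 2 in CD4 T cells, and at 8390, 9628, 5574 and 837 CPM in B cells. AY036118 (777, 658, 423 and 43.1 CPM in B cells), Cmss1 (2774, 2169, 1180 and 133 CPM) and Lars2 (195, 208, 138 and 35.8 CPM) followed, with EV 2 far below the rest, and CD8 T cells were alike. The median mitochondrial share was 3.15, 3.06, 3.38 and 3.78% in B, 2.85, 2.79, 3.05 and 3.36% in CD4 T and 3.15, 3.06, 3.26 and 3.53% in CD8 T cells, higher in both EV libraries. The part of all these differences in the levels below was not tested.

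Rbm3 was lower in the EV libraries than in the control libraries in B, CD4 T and CD8 T cells, to a similar degree in each. In CD4 T cells the Rbm3 level was 500.8 CPM in Control 1, 488.4 in Control 2, 378.9 in EV 1 and 284.4 in EV 2. The EV mean was 332 ± 66.8 CPM (SD, n = 2) against a control mean of 495 ± 8.77 CPM (SD, n = 2), or 0.671 of it. The control libraries lay close together, EV 1 lay between them and EV 2, and the groups did not overlap. In B cells Rbm3 stood at 479.1, 489.0, 344.1 and 263.0 CPM in the same order of libraries, and the EV mean was 0.627 of the control mean. In CD8 T cells it stood at 504.7, 480.1, 368.1 and 293.7 CPM, and the ratio was 0.672. EV 2 was thus the lowest and EV 1 the next lowest in all 3 lymphocyte gates. These gates come from the same 4 libraries and are not independent of each other. On the log2 scale of the fit across all genes, the Rbm3 difference was -0.56 ± 0.13 (SE) in CD4 T, -0.63 ± 0.14 in B and -0.55 ± 0.11 in CD8 T cells. The CD4 T value was -0.79 without EV 1 and -0.34 without EV 2. Gm42418, AY036118, Cmss1 and Lars2 likewise had both EV libraries below both control libraries and EV 2 the lowest in these gates, and the part of this in the Rbm3 and Cirbp levels was not tested. In summed counts, less RNA per cell and fewer cells with the transcript cannot be told apart.

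In macrophages Rbm3 was at 342.7, 565.0, 438.0 and 340.7 CPM, so the groups overlapped. These sums rest on 24, 100, 118 and 72 UMIs, and the log2 difference of -0.39 ± 0.32 (SE, n = 2 per group) changed sign without Control 2 (0.07) and was -0.10 without the macrophages that held a Cd79a UMI, the B cell marker. The B marker sums of macrophages given above differed between the groups, and their part in this value and in those of macrophages against B cells was not tested. In dendritic cells the Rbm3 levels were 470.7, 510.0, 422.5 and 345.4 CPM. The dendritic groups did not overlap, at a log2 difference of -0.32 ± 0.26, which was -0.50 without EV 1 and -0.14 without EV 2. It was -0.13 under the alternative filter on cells. Dendritic cells then numbered 67, 109 and 100 in Control 1, Control 2 and EV 1, against 72, 123 and 94 under the main filter.

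Cirbp was lower in the EV libraries by a larger factor than Rbm3 and from a lower level. In B cells, Cirbp was at 141.8 CPM in Control 1, 133.4 in Control 2, 75.9 in EV 1 and 57.4 in EV 2, with 1526 to 2367 UMIs behind each value. The EV mean of 66.7 ± 13.1 CPM (SD, n = 2) was 0.485 of the control mean of 138 ± 5.91 CPM (SD, n = 2). The order of the libraries was the one seen for Rbm3, with EV 2 the lowest. In CD4 T cells the Cirbp level was 105.7, 96.4, 53.4 and 36.3 CPM and the ratio of means was 0.444. In CD8 T cells it was 93.1, 77.3, 48.9 and 32.6 CPM and the ratio was 0.478. The fitted log2 differences were -0.995 ± 0.13 (SE) in B, -1.16 ± 0.15 in CD4 T and -1.05 ± 0.15 in CD8 T cells.

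Dendritic cells held 39, 40, 27 and 29 Cirbp UMIs, or 93.2, 60.2, 45.6 and 43.2 CPM, at a log2 difference of -0.72 ± 0.33 (SE, n = 2 per group). Macrophages held 5, 7, 10 and 5 Cirbp UMIs, too few to pass the filter on low counts. The 2 EV libraries lay below the 2 control libraries for Rbm3 in B, CD4 T, CD8 T and dendritic cells and for Cirbp in all 5 gates. Over all genes tested, 26.2% in B, 25.2% in CD4 T, 25.3% in CD8 T, 20.4% in macrophage and 18.6% in dendritic cells showed this non-overlap in the same direction, and nothing is read from the members' own count because this contrast chose them.

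**Figure D1:**
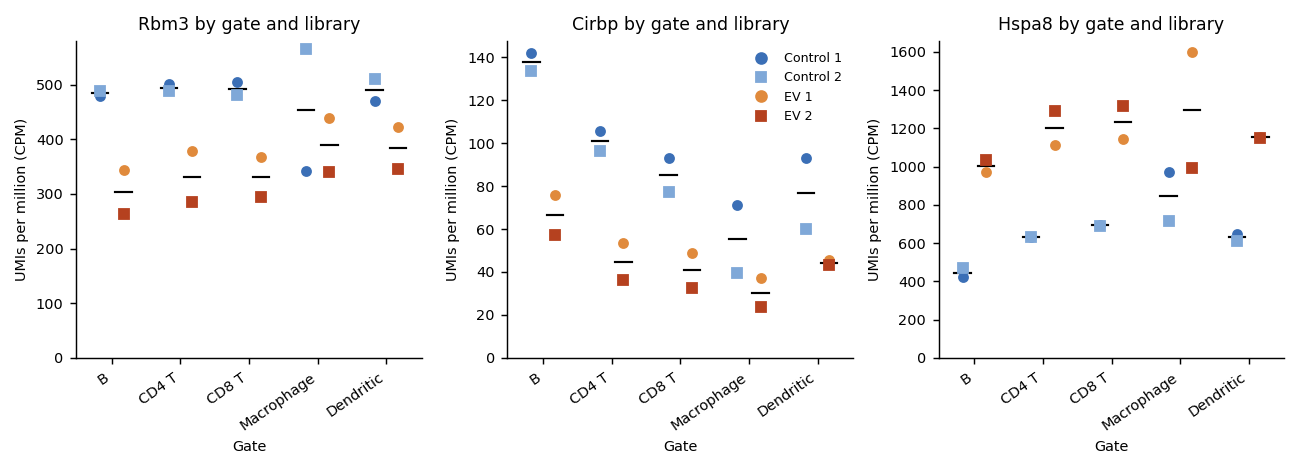
Level of Rbm3, Cirbp and Hspa8 (CPM of UMIs summed per library, linear axis from 0) in each of the 5 gates, with 1 point per library. In B, CD4 T and CD8 T cells both EV points sit below both control points for Rbm3 and Cirbp and above them for Hspa8. The macrophage points of Rbm3 overlap.

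The ratio of Rbm3 to Cirbp UMIs within a library is free of the library's total. On the log2 scale it was 2.29 ± 0.07 (SD, n = 2) in the CD4 T cells of the control libraries and 2.90 ± 0.10 (SD, n = 2) in those of the EV libraries. On the linear scale, the Rbm3 to Cirbp ratio of B cells was 3.38 and 3.67 in control and 4.53 and 4.58 in EV libraries. In CD8 T cells it was 5.42 and 6.21 in control and 7.52 and 9.01 in EV libraries. The groups did not overlap in these 3 gates. The ratio comes from the values for which both genes were chosen and is a description. In macrophages and dendritic cells the ratios of the groups overlapped, at 4.80 to 14.4 and 5.05 to 9.26.

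Smaller populations, taken by a defining gene each, had both EV libraries below both control libraries for Cirbp and a mixed picture for Rbm3. The Cirbp sums rested on 2 to 4 UMIs per library in plasma cells and 5 to 48 in plasmacytoid dendritic cells. The share of all genes with such non-overlap was not counted in these populations, and nothing is read from it. Foxp3+ CD4 T cells, which hold the regulatory T cells, had Rbm3 at 593, 555, 532 and 317 CPM in Control 1, Control 2, EV 1 and EV 2. Gamma-delta T cells, taken by Trdc, had Rbm3 at 427, 647, 317 and 266 CPM. Plasmacytoid dendritic cells, taken by Siglech, had 533, 633, 468 and 381 CPM. In all of these the EV libraries lay below the control libraries. NK cells, taken by Ncr1, overlapped between groups for Rbm3 (439, 462, 471 and 308 CPM) and not for Cirbp (179, 92.5, 67.3 and 39.0 CPM, from 9 to 30 UMIs). Plasma cells, taken by 10 or more UMIs of the antibody joining chain gene Jchain, had among the highest Rbm3 levels at 1042, 1230, 1147 and 1143 CPM. There the EV mean of 1145 CPM was close to the control mean of 1136 CPM, from 5, 6, 14 and 14 cells and 33 to 216 UMIs, and the groups overlapped.

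In B, CD4 T and CD8 T cells, the share of cells with at least 1 UMI moved with the summed levels. To set aside depth, each cell was thinned to 1000 UMIs. Then Rbm3 was found in 38.2% and 38.7% of CD4 T cells in the control libraries and in 29.8% and 22.8% of those in EV 1 and EV 2. The exact 95% binomial intervals, which cover counting error within a library only and compare no groups, lay within 35.6 to 41.1% for the control and 20.5 to 32.9% for the EV libraries. In B cells the thinned Rbm3 share was 35.8% in control and 25.2% in EV libraries on average, and in CD8 T cells 39.0% and 26.2%. Without thinning, 92.6% of control and 86.2% of EV CD4 T cells held an Rbm3 UMI, so at full depth the transcript was seen in most cells of either group. Thinned Cirbp shares were 13.7% and 6.96% in B, 10.6% and 4.50% in CD4 T, and 7.82% and 4.90% in CD8 T cells, and unthinned they were 47.5% and 32.9%, 49.8% and 28.9%, and 49.3% and 31.7%. Free RNA adds to such shares. Ighm, the B cell heavy chain gene, had a UMI in 56.5 to 67.2% of CD4 T cells and in 67.6 to 75.9% of CD8 T cells at medians of 6046 to 8339 and 7397 to 9871 UMIs. The unthinned Cirbp shares lie below that of Ighm, a far more abundant transcript, so they are not read as the share of cells that express Cirbp.

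Cell types were compared within libraries, a contrast that the choice of the genes did not use. Macrophages with a Cd79a UMI numbered 5, 10, 20 and 16 in Control 1, Control 2, EV 1 and EV 2. Such dendritic cells numbered 17, 17, 21 and 18. These cells also counted as B cells, except in the alternative myeloid gates without Cd79a. In the main fit Rbm3 was nearly level across the gates and was called only in CD8 T minus B cells. Some alternatives given at the end lost that call or added others. The median over all genes was -0.19 in dendritic and -0.40 in macrophage minus B cells, and 0.03 in each by DESeq2. Relative to B cells, the log2 difference of Rbm3 was 0.12 ± 0.08 (SE) in CD4 T (adjusted p = 0.206), 0.06 ± 0.12 in macrophages (adjusted p = 0.729) and 0.09 ± 0.09 in dendritic cells (adjusted p = 0.462), by edgeR's quasi-likelihood test on 4 libraries with the library as a block and Benjamini-Hochberg adjustment over all genes. In CD8 T cells Rbm3 was 0.18 ± 0.08 higher on the log2 scale than in B cells (adjusted p = 0.0445), a call that was lost without EV 1 (0.18), without EV 2 (0.21) and under 4 other settings. Without Control 1 the dendritic value was 0.21 (adjusted p = 0.0497, edgeR). The step from CD4 T to CD8 T was 0.07 ± 0.08 (adjusted p = 0.606). In the control libraries the mean Rbm3 level was 454 ± 157 CPM (SD, n = 2) in macrophage, 484 ± 7.01 in B, 490.3 ± 27.8 in dendritic, 492 ± 17.4 in CD8 T and 495 ± 8.77 in CD4 T cells. In the EV libraries it was 304 ± 57.4 CPM (SD, n = 2) in B, 331 ± 52.6 in CD8 T, 332 ± 66.8 in CD4 T, 384 ± 54.5 in dendritic and 389 ± 68.8 in macrophage cells. Macrophages were thus the lowest in one order and the highest in the other, and no neighbours in either order differed by more than the larger of their SDs. These are sums of UMIs from the ends of transcripts, so the levels are compared for 1 gene at a time.

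Cirbp differed between cell types. It was lower than in B cells in CD4 T (log2 difference -0.46 ± 0.06 SE, adjusted p = 3.1e-07), CD8 T (-0.60 ± 0.06, adjusted p = 2.6e-09), dendritic (-0.87 ± 0.13, adjusted p = 1.9e-06) and macrophage cells (-1.43 ± 0.24, adjusted p = 3.9e-05), in the same edgeR fit. The macrophage value rested on 5 to 10 Cirbp UMIs per library, too few for the fit of macrophages alone. CD8 T and CD4 T cells differed by -0.14 ± 0.06 (adjusted p = 0.128, edgeR). In the control libraries the mean Cirbp levels were, in order, B (138 CPM), CD4 T (101), CD8 T (85.2), dendritic (76.7) and macrophage (55.5). In the EV libraries they were B (66.7 CPM), CD4 T (44.8), dendritic (44.4), CD8 T (40.8) and macrophage (30.4), where CD4 T, dendritic and CD8 T cells lay within the spread of the libraries. B cells lay above CD4 T cells in each of the 4 libraries. Such differences were common between cell types: 62.2% of genes tested were called between CD4 T and B, 65.2% between CD8 T and B, 25.7% between CD8 T and CD4 T, 53.3% between dendritic and B and 33.7% between macrophage and B cells.

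Within CD4 T cells, Rbm3 was higher in cells with S100a4 and no Ccr7 UMI, as activated and memory cells show, than in cells with Ccr7 and no S100a4 UMI, the pattern of resting naive cells. Rbm3 stood at 770 CPM in the S100a4-positive against 485 CPM in the Ccr7-positive cells of Control 1, at 747 against 475 in Control 2, at 665 against 363 in EV 1 and at 496 against 273 in EV 2. The S100a4-positive cells were higher in 4 of 4 libraries, from 44, 60, 34 and 31 cells. The log2 difference was 0.55 ± 0.09 (SE, adjusted p = 6.8e-05, edgeR with the library as a block), in a contrast that called 25.7% of genes. In cells thinned to 1000 UMIs it was 0.15 ± 0.17 (adjusted p = 0.698), so the call was lost. Ribosomal transcripts made up 16.6 to 19.3% of UMIs in the S100a4-positive and 27.2 to 29.7% in the Ccr7-positive cells, and the part of this in the difference was not tested. Cirbp was at -0.48 ± 0.17 in the same contrast (adjusted p = 0.0517), from 12 to 31 UMIs per library in the S100a4-positive cells. It was -0.56 and past the threshold without EV 1 (adjusted p = 0.0348, edgeR) and -0.29 without Control 2.

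Foxp3-positive and Foxp3-negative CD4 T cells differed by 0.18 ± 0.08 log2 in Rbm3 (adjusted p = 0.135) and by -0.05 ± 0.14 in Cirbp (adjusted p = 0.863), where 17.5% of genes were called by the same edgeR test. Under the alternative cell filter the Rbm3 difference was 0.41 (adjusted p = 0.00217, edgeR).

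Cycling B cells, with 2 or more UMIs of the proliferation genes Mki67 and Top2a, had Rbm3 at 941, 1143, 846 and 843 CPM in Control 1, Control 2, EV 1 and EV 2, against 476, 474, 332 and 251 CPM in the other B cells. They were higher in each library, and the EV values were below the control values in both states. Control 1 held only 13 cycling B cells, under the limit of 15 set for a fit. The values are therefore given with no test. Cirbp was at 102, 67.4, 35.1 and 44.3 CPM in the cycling cells, from 9, 19, 16 and 18 UMIs, and at 142, 134, 76.6 and 57.4 CPM in the other B cells, lower in the cycling cells of each library. Cycling T cells had Rbm3 at 861, 780.5, 539 and 518 CPM. S100a4-positive CD8 T cells, only 5 of them in Control 1, had Rbm3 at 1044, 712, 413 and 430.1 CPM against 503, 475, 366 and 293 CPM in Ccr7-positive CD8 T cells, also with no test.

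**Figure D2:**
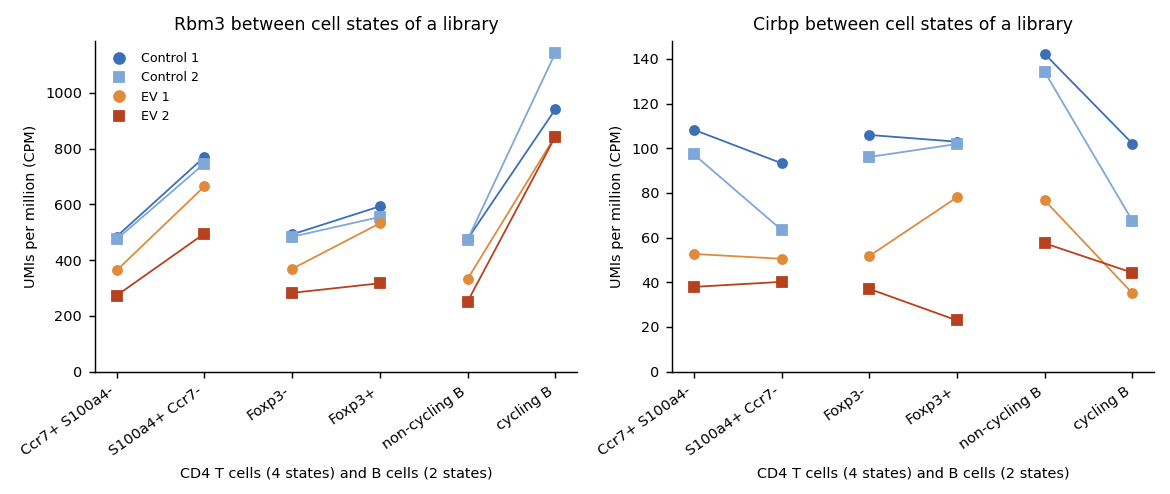
Level of Rbm3 and Cirbp (CPM, linear axis from 0) in paired cell states of B and CD4 T cells, with 1 point per library and lines that join the 2 states of a library. Rbm3 is higher in the S100a4-positive state of CD4 T cells and in cycling B cells in all 4 libraries.

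Hspa8 moved the other way between the groups. It was chosen with earlier results of these data known, so its p-values below are not independent support. In CD4 T cells Hspa8 was at 631.1, 630.1, 1115 and 1289 CPM in Control 1, Control 2, EV 1 and EV 2, a log2 rise of 0.95 ± 0.11 (SE, adjusted p = 0.00534, edgeR, n = 2 per group). In B cells it rose by 1.22 ± 0.11 (adjusted p = 0.00321) and in CD8 T cells by 0.85 ± 0.10 (adjusted p = 0.00126), with no overlap of groups. The values in macrophages (0.52, adjusted p = 0.607) and dendritic cells (0.91, adjusted p = 0.211) did not pass the edgeR test.

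Cell by cell, Rbm3 and Hspa8 did not oppose each other in most libraries. The correlation of their depth-adjusted levels across CD4 T cells was 0.14 in Control 1, 0.12 in Control 2, -0.07 in EV 1 and 0.04 in EV 2. In B cells it was 0.11, 0.13, -0.01 and 0.10, and in CD8 T cells 0.06, 0.13, -0.08 and 0.07. EV 1 was the library below 0 in each of the 3 gates at full depth. In cells thinned to 2000 UMIs the EV 1 values were 0.028 in B, 0.007 in CD4 T and -0.013 in CD8 T cells, and the control values in CD4 T cells were 0.002 and 0.029. These coefficients are a description over 923 to 4866 cells that share a library, its depth and its free RNA. Both genes also correlated with the ribosomal share of the cell, at 0.052 to 0.246 for Rbm3 and 0.162 to 0.267 for Hspa8, and the part of this in their relation was not tested. Over the 12 library and gate groups the mean for Rbm3 with Hspa8 was 0.062, which ranked 184 of 4914 genes from the top.

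Cirbp showed weak negative values with Hspa8, below 0 in 10 of 12 groups, with a mean of -0.044 that was the third lowest of 4914 genes. In EV 1 the Cirbp and Hspa8 correlation was -0.09 in B, -0.14 in CD4 T and -0.15 in CD8 T cells. In the other 3 libraries it lay between -0.06 and 0.03. The 2 members correlated with each other mainly in EV 1, at 0.14 in CD4 T and 0.14 in CD8 T cells and 0.04 in B cells, against -0.04 to 0.03 elsewhere. In the CD4 T and CD8 T cells of EV 1, Rbm3 was the gene of 4914 most correlated with Cirbp. Thinned to 2000 UMIs, the EV 1 values for the 2 members were 0.089 in CD4 T and 0.035 in CD8 T cells, and those for Cirbp with Hspa8 were -0.064 and -0.082. Thinned to 1000 UMIs, they were -0.018 and 0.003 for the 2 members and -0.061 and 0.026 for Cirbp with Hspa8. These are sparse counts and the correlations are weak, so they are given as values of 1 library.

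**Figure D3:**
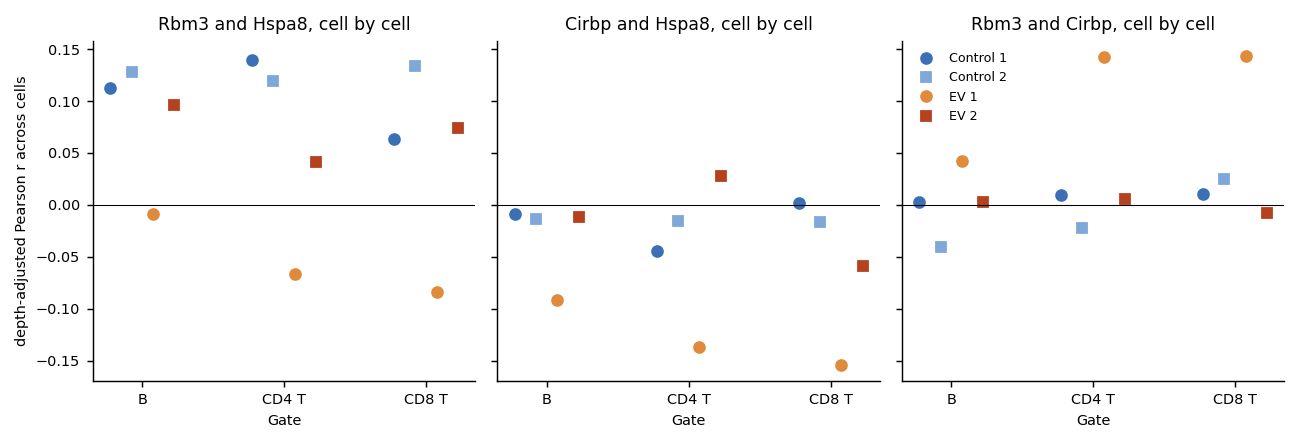
Pearson correlation across cells of depth-adjusted levels for each pair of Rbm3, Cirbp and Hspa8, with 1 point per library in B, CD4 T and CD8 T cells. EV 1 has the lowest value for each member with Hspa8 in every gate, and the highest for Rbm3 with Cirbp, at full depth.

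Splitting the cells of each library into 4 equal bins by depth-adjusted Hspa8, chosen after the correlations were seen, re-expresses the same cells in CPM and adds no independent evidence. In EV 1, CD4 T cells of the lowest to the highest bin had Cirbp at 63.3, 70.0, 41.7 and 37.2 CPM, and CD8 T cells at 62.9, 58.4, 40.9 and 32.2 CPM. Cirbp in the highest bin was thus 0.588 of the lowest in CD4 T, 0.512 in CD8 T and 0.688 in B cells of EV 1. In the other 3 libraries the ratio lay between 0.754 and 1.16 over the 3 gates. In its lowest Hspa8 bin, EV 1 held less Cirbp than the control libraries in theirs. Those control bins had Cirbp at 114 and 94.8 CPM in CD4 T and 96.0 and 79.6 CPM in CD8 T cells. Their Hspa8 was at 193 and 213 CPM in CD4 T and 256 and 286 CPM in CD8 T cells. The EV 1 bin had Hspa8 at 419 CPM in CD4 T and 516 CPM in CD8 T cells, so the bins were not matched for Hspa8. Rbm3 was higher in the top than in the bottom bin in the other libraries, by 1.11 times or more, and the EV 1 ratio was 0.873 in CD4 T, 0.898 in CD8 T and 1.11 in B cells. Among CD4 T cells thinned to 1000 UMIs that held no Hspa8 UMI, 37.9% of control and 25.2% of EV cells had an Rbm3 UMI. At this depth a count of 0 does not make the Hspa8 level of the groups equal.

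**Figure D4:**
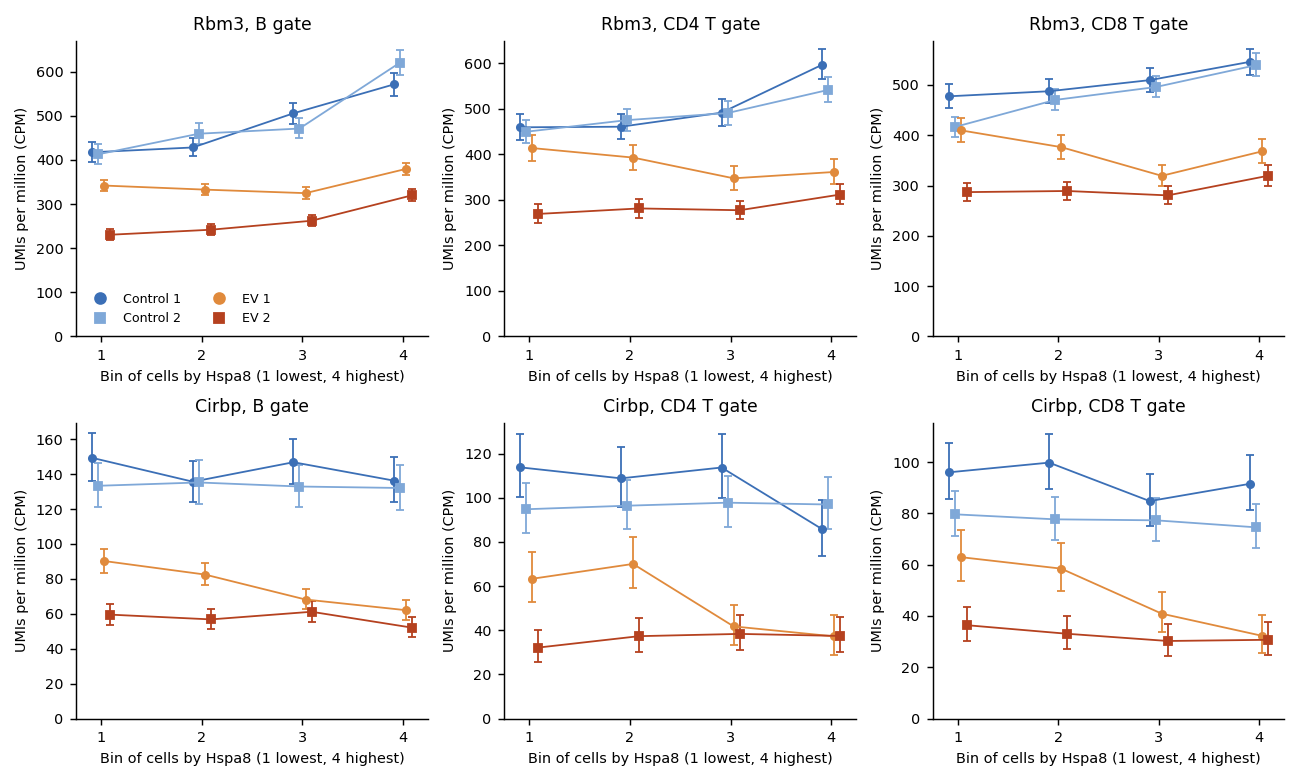
Level of Rbm3 and Cirbp (CPM, linear axis) in cells of each library split into 4 equal bins by depth-adjusted Hspa8, from lowest (1) to highest (4), with bars for exact 95% Poisson intervals that cover counting error only. Cirbp declines from bin 2 to bin 4 in EV 1, and EV values lie below control values in the lowest bin of each gate. For Rbm3 in that bin of CD8 T cells, EV 1 (410 CPM) lies close to Control 2 (416 CPM), with overlapping intervals.

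The genes whose cell-to-cell pattern was most like Rbm3, by mean correlation over the 12 library and gate groups, were Rps2 (0.176), Rpl41 (0.165), Rpsa (0.163) and Rplp0 (0.161), which encode ribosomal proteins, and Tmsb4x (0.158), which encodes an actin-binding peptide. The lowest were Arhgap15 (-0.192), the nuclear RNA Malat1 (-0.167), Dock2 (-0.147), and the transcription factor genes Foxp1 (-0.141) and Bach2 (-0.137). Tmsb4x aside, these genes were also among the 20 highest or 20 lowest for Hspa8, with Rps2 at 0.229 and Arhgap15 at -0.239. For Cirbp the values were much smaller. The highest were Limd2 (0.045), Rps27 (0.040), Mir142hg (0.040), H3f3b (0.038) and Arhgef1 (0.036). The lowest were the chaperone genes Hsp90ab1 (-0.048), Dnaja1 (-0.045), Hspa8 (-0.044) and Hsp90aa1 (-0.036), followed by the interferon-induced Ifi47 (-0.032). Taken library by library, any of these chaperone genes was among the 5 lowest for Cirbp only in EV 1. Rbm3 ranked 29 of 4914 for Cirbp, with a mean of 0.026.

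The heat shock and HSF1 target list, chosen with earlier results of these data known, rose in part. Of its 26 genes, 14 of 23 tested in B, 11 of 24 in CD4 T and 15 of 25 in CD8 T cells were higher in the EV libraries, and none was lower, by the edgeR test. The list medians were 0.59, 0.52 and 0.60 on the log2 scale, beside medians near 0 over all genes tested. Among all genes, 1.57% in B, 0.788% in CD4 T and 1.34% in CD8 T cells were called higher in the EV libraries. Hsph1, which encodes a nucleotide exchange factor of the HSP70 chaperones, rose by 1.36 ± 0.13 in B, 1.36 ± 0.11 in CD4 T and 1.26 ± 0.10 in CD8 T cells (SE, adjusted p = 0.00321, 8.1e-04 and 1.1e-04). Stip1, whose protein links HSP70 to HSP90, rose by 0.97, 0.91 and 1.02 in the same order. Dnaja1, an HSP40 co-chaperone gene, rose by 0.99, 0.84 and 0.78. In B cells 4 list genes passed without Control 1, where Dnaja1 missed the threshold, and 5 without Control 2, in fits that called 0.69% and 1.38% of all genes. In CD4 T cells 19 passed without EV 1, in a fit that called 16.5% of all genes. In macrophages 0 of 16 and in dendritic cells 0 of 22 list genes passed, at medians of 0.46 and 0.63, with 1 and 9 at an unadjusted p under 0.05 and 0 called by DESeq2 in either gate. In the macrophages edgeR called 0% of 3497 genes in either direction, while 316 genes had an unadjusted p under 0.05 and DESeq2 called 6. For dendritic cells, the share of genes called was 0.0674% upward and 0.0809% downward.

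**Figure D5:**
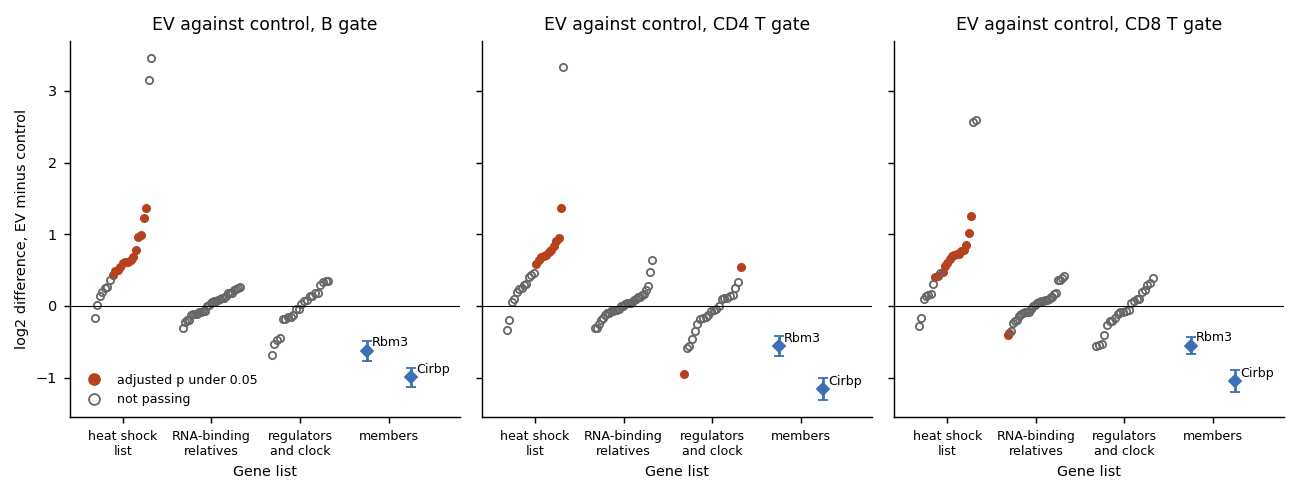
Log2 difference EV minus control, from the edgeR fit, of the genes of the heat shock, RNA-binding and regulator lists (filled where called) beside Rbm3 and Cirbp (diamonds with bars for the standard error). Most heat shock genes lie above 0, while the RNA-binding relatives lie on both sides of 0, from -0.31 to 0.63 in CD4 T and -0.41 to 0.41 in CD8 T cells.

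Other RNA-binding proteins with the same kind of motif or with a cold-shock domain were mostly not called. Of 30 such genes, 0 passed in B and 0 in CD4 T cells by edgeR, while 6 and 7 had an unadjusted p under 0.05 and DESeq2 called 0 in either gate. In CD8 T cells 2 of 30 fell, among them Hnrnpd by 0.37 ± 0.09 on the log2 scale (SE, adjusted p = 0.0481, edgeR). The list medians were 0.05 in B, 0.02 in CD4 T and 0.03 in CD8 T cells on the log2 scale, with members on both sides of 0. For comparison, 0.98% of all genes in B, 0.302% in CD4 T and 0.855% in CD8 T cells were called lower. Without EV 1 the calls were 11 in B, 8 in CD4 T and 10 in CD8 T cells, in both directions, with Hnrnpa1, Hnrnpa3 and Hnrnpd among those lower in all 3 gates and Rbm5, Rbm10 and Ybx3 higher. In that fit 19.6%, 16.5% and 16.9% of all genes were called. Without EV 2 the list calls were 1, 3 and 4, where 7.18%, 6.87% and 5.63% of all genes were called, and the 2 calls of CD8 T cells were lost without either control library. These genes were named after their values were seen. None of the 23 tested in macrophages or the 29 tested in dendritic cells passed by edgeR or DESeq2, and 0 and 1 had an unadjusted p under 0.05.

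Of the 24 genes tied to temperature-dependent control, splicing or the clock, 22 were tested in each lymphocyte gate, and Nr1d1 and Trpv4 were not. In CD4 T cells Nr1d2, which encodes a repressor of the clock loop, was at 16.5, 15.7, 9.23 and 7.36 CPM and fell by 0.95 ± 0.17 (SE, adjusted p = 0.0274, edgeR), a call lost by DESeq2 and in gates that required 2 UMIs of each marker. Sfpq, whose protein takes part in splicing and clock repression, rose by 0.54 ± 0.11 in CD4 T cells (adjusted p = 0.0408), a call lost without either control library. None passed in B or CD8 T cells by edgeR, where 8 and 10 had an unadjusted p under 0.05 and DESeq2 called 2 and 1. The SR protein gene Srsf5 was at -0.48, -0.59 and -0.54 in B, CD4 T and CD8 T cells and Srsf7 at 0.34, 0.33 and 0.32. Neither passed in the main edgeR fit. DESeq2 called Srsf7 in B and CD8 T cells and Srsf5 in B cells. Srsf5 was also called after thinning in B and CD4 T cells, in strict gates in CD4 T and CD8 T cells, and with RLE size factors in CD8 T cells. The clock gene Per1 was at -0.44, -0.56 and -0.41. Hnrnph1, tied to temperature-dependent splicing of Rbm3, was at -0.15, -0.16 and -0.16, Clk1, the kinase of SR proteins, at -0.12, -0.25 and -0.21, and Sp1 at -0.04, -0.04 and -0.08, none of them called. Without EV 1 the calls in the list were 9 in B, 7 in CD4 T and 10 in CD8 T cells, with Srsf5, Per1 and Nr1d2 lower and Srsf7 and Sfpq higher in all 3 gates. Without EV 1, 19.6%, 16.5% and 16.9% of all genes were called in these gates. Without EV 2 the list calls were 2, 4 and 4, beside 7.18%, 6.87% and 5.63% of all genes. Without Control 1 there were 0, 1 and 1, and without Control 2 there were 0, 1 and 2. The clock genes Clock, Arntl and Dbp stood at 0.19, 0.35 and -0.18 in B and 0.11, 0.10 and -0.35 in CD4 T cells, also without a call. The other members, Hsf1, Hsf2, Clk4, Srsf2, Srsf3, Srsf6, Nono, Per2, Cry1, Cry2 and Rtn3, lay between -0.68 (Per2 in B cells) and 0.30 (Rtn3 in B cells) in the 3 gates and were not called.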

How the data were processed

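Single-cell RNA-seq libraries of lymph nodes were made with a 10x Genomics droplet kit from 2 control and 2 EV-treated replicates. Per the labels, the authors aligned reads to mm10 and made the deposited counts of unique molecules (UMIs) per gene and cell with Cell Ranger 7.1.0. The annotation release and the treatment of introns are not given in the sources used here. Here, cells with 200 to 5000 genes, at most 20000 UMIs and under 10% mitochondrial UMIs were kept, after the limits of the study, and its limit of 60% ribosomal UMIs was tried as an alternative. Doublets were not removed. B cells held a Cd79a and no Cd3e UMI. CD4 T and CD8 T cells held Cd3e with Cd4 or Cd8a alone and no Cd79a. Macrophages held 2 or more UMIs of C1qa and C1qb, and dendritic cells held Fscn1, both without Cd3e. A Cd79a UMI did not exclude a cell from these 2 gates, so they could share cells with the B gate.

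Counts were summed per library and gate and fitted with edgeR 4.0.16 in R 4.3.3 (TMM, filterByExpr, quasi-likelihood test, two-sided, Benjamini-Hochberg adjustment over all genes tested, threshold 0.05), with the library as a block between gates and between states. A gate needed 30 cells and a state 15 cells in every library. CPM values are UMIs per 1000000 UMIs of the sum. The study compared cells by a Wilcoxon test. Here the library is the replicate, and EV against control p-values weigh each difference against the spread between libraries of a group. Between gates and states, the difference within libraries is weighed against its spread over libraries. Cell correlations used the logarithm of UMIs per 10000 after a linear fit on total UMIs. The edgeR step was also run on simulated data. Alternatives were DESeq2 1.42.0, RLE size factors, reduced library sizes, no filterByExpr, cells thinned to 1000 or 2000 UMIs and a ribosomal limit. An alternative cell filter required under 5% mitochondrial UMIs and set no upper limit on genes or UMIs. It kept fewer cells in every library. Strict gates of 2 UMIs, myeloid gates without Cd79a, each library left out, and a replicate block were also run.

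Rbm3, Cirbp and Hspa8 were always named. Of each list, the called genes with the largest change in CD4 T and B cells were named, up to 3 per direction, with the 5 highest and 5 lowest correlates of each member among genes with a UMI in 10% of cells of every group, and the members of the regulator list that were tested. The members, lists and rules were chosen with earlier results of these data known. Motifs were searched on both strands in RefSeq promoters of GRCm38.p6. The values of 1 called gene of the list of RNA-binding relatives are not reported here.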

Additional observations from a re-analysis of the deposited data

How the results depend on the processing

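The EV and control levels of Rbm3 and Cirbp kept their direction in B, CD4 T and CD8 T cells under every alternative run, and the 5 contrasts of Cirbp between gates kept their side of the threshold. Rbm3 between gates was the least stable. Its CD4 T minus B value was 0.16 by DESeq2 and 0.22 with the alternative cell filter, both past the threshold. Its CD8 T minus B value lost its call without filterByExpr (0.16), in thinned cells (0.16), in strict gates (0.19) and with the myeloid gates free of Cd79a (0.18). Its dendritic minus B value was past the threshold by DESeq2 (0.26), with RLE size factors (0.26) and with the alternative cell filter (0.44). The same value was -0.018 in strict gates. With the alternative cell filter the dendritic EV minus control value of Rbm3 was -0.13 and its Foxp3 contrast 0.41. In thinned cells the Rbm3 S100a4 contrast was 0.15. The Cirbp S100a4 contrast in CD4 T cells passed with reduced library sizes (-0.48), without filterByExpr (-0.58) and with the alternative cell filter (-0.55). A fit of the same contrast in CD8 T cells was added after seeing the data, below the limit on cells. It gave -0.10 against a mean log2 ratio of 0.12. The cause was not tested in any of these.

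Counts of called list genes moved as follows. Of heat shock genes, 9 were called in CD8 T cells after thinning and 2 in dendritic cells with the alternative cell filter. Without filterByExpr, 1 was called in macrophages and 2 in dendritic cells. Of the RNA-binding relatives, 1 in B, 1 in CD4 T and 5 in CD8 T cells were called without filterByExpr. With the alternative cell filter 1 was called in each of these gates. Strict gates gave 1 in CD4 T cells, and thinning gave 0 in CD8 T cells. Of the regulators, 2 in B, 1 in CD4 T and 1 in CD8 T cells were called by DESeq2, and 7, 5 and 5 without filterByExpr. In B cells 1 was called after thinning and 2 with the alternative cell filter. For CD8 T cells 1 was called with RLE size factors and 1 in strict gates. Over all genes, 338, 130 and 270 were called in B, CD4 T and CD8 T cells, against 1392, 773 and 857 without filterByExpr.

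Replicate numbers are shared by the groups. After group means were removed, same-numbered libraries correlated at 0.02 in B, 0.06 in CD4 T and 0.08 in CD8 T cells. The values were 0.14 in macrophages and -0.02 in dendritic cells. With 2 libraries per group, these coefficients cannot show whether the shared numbers mark a pairing. With a replicate block, Rbm3 was at -0.64 in B and -0.57 in CD4 T cells and Cirbp at -1.01 and -1.18. The block raised the calls to 1182, 788 and 1018 in B, CD4 T and CD8 T cells, with 1 heat shock gene in macrophages, 2 and 5 RNA-binding relatives in CD4 T and CD8 T cells and 4, 5 and 5 regulators in B, CD4 T and CD8 T cells.

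Mean correlations near 0 changed sign in 5 cases. At 1000 UMIs, Cirbp with Hspa8 (0.0092) and Rbm3 with Hspa8 (-0.015) did so in CD8 T cells. Rbm3 with Cirbp did so in CD4 T cells at 1000 UMIs (-0.0026) and in B cells with the alternative cell filter (-0.0013). It also did so in CD8 T cells by Spearman's coefficient at 2000 UMIs (-0.0031).

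Leaving out each library in turn moved the EV minus control value of Rbm3 from -0.84 to -0.44 in B, -0.79 to -0.34 in CD4 T, -0.74 to -0.38 in CD8 T, -0.66 to 0.068 in macrophage and -0.50 to -0.14 in dendritic cells. For Cirbp it moved from -1.22 to -0.81 in B, -1.47 to -0.88 in CD4 T and -1.38 to -0.75 in CD8 T cells. The lowest values came without EV 1 in the lymphocyte gates and the highest without EV 2. Between gates, Rbm3 ranged from 0.18 to 0.25 in CD8 T minus B, -0.019 to 0.27 in macrophage minus B and 0.025 to 0.21 in dendritic minus B. Cirbp ranged from -0.56 to -0.29 in the S100a4 contrast and -0.19 to 0.037 in the Foxp3 contrast. Called heat shock genes ranged from 4 to 19 in B, 8 to 19 in CD4 T, 0 to 1 in macrophage and 0 to 5 in dendritic cells. Called RNA-binding relatives ranged from 0 to 11, 0 to 8 and 0 to 10 and called regulators from 0 to 9, 1 to 7 and 1 to 10 in B, CD4 T and CD8 T cells, and from 0 to 1 in dendritic cells. An arm of 1 library was assumed to vary like the other group.

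The EV minus control share of cells with an Rbm3 UMI was -12.1 and -14.2 percentage points in CD4 T, -12.9 and -15.2 in CD8 T, 1.05 and -25.2 in macrophage and -4.14 and -9.27 in dendritic cells at 1000 and 2000 UMIs, against 11.9 in macrophage and 1.24 in dendritic cells at full depth, and -18.3 in B cells at 2000 UMIs. For Cirbp it was -6.74 in B cells and 2.26 in dendritic cells at 1000 UMIs, -6.07 and -10.0 in CD4 T and -2.91 and -8.39 in CD8 T cells, and -6.82 in macrophages at 2000 UMIs. Depth limits the macrophage and dendritic values most, with 5 to 10 Cirbp UMIs per library in macrophages.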
